A study of Mus musculus with 2 samples.

Results

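Nuclei gated on the chromatin of vascular and leptomeningeal marker genes were examined in a single-nucleus ATAC-seq comparison of mouse brain after stroke and after sham surgery. The assay marks DNA that the Tn5 transposase can reach, so each sequenced fragment reports open chromatin in 1 nucleus. Of 10329 barcodes that passed the quality filter, 408 entered the gate, with 231 of 5949 in sham and 177 of 4380 in stroke. A nucleus entered when its fragments over the bodies and 2 kb upstream of 16 markers exceeded the number expected from its own depth, with a score (observed minus expected, over the square root of expected) of at least 3.5 and at least 5 fragments. The expected number was the nucleus's fragment total multiplied by the share of marker fragments over all kept barcodes of both libraries. The nuclei were thus chosen by their fragments at the 16 markers, and marker levels are given as a description.

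All mice were wild-type C57BL/6J males aged 8 to 12 weeks, anaesthetised with isoflurane for surgery. The stroke group had 1 h of middle cerebral artery occlusion with an intraluminal filament followed by reperfusion, and the sham group had the surgery without sustained occlusion. Tissue was frozen at 48 h, and 4 brains were pooled per condition before nuclei were extracted, from ipsilateral hemispheres in stroke and from brains in sham, without olfactory bulbs and cerebellum. With 1 library per condition no test between conditions was possible. Every 95% interval covers counting error only, which excludes the spread between animals and between nuclei. Intervals of summed fragments treat the fragments of 1 nucleus as independent, though 50 Erg fragments lay in 1 sham nucleus.

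Brain endothelial cells line the capillaries and form the blood-brain barrier through tight junctions and selective transporters, a state maintained by Wnt and beta-catenin signalling. ERG, FLI1 and ETS1, which bind ETS motifs, and SOX17 and FOX factors are known regulators of endothelial identity. Pericytes and smooth muscle cells wrap the vessels and depend on PDGF from the endothelium, while fibroblasts of the leptomeninges and perivascular space make collagens and form much of the fibrotic scar after injury.

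For most of the gated nuclei the label of vascular or leptomeningeal cells depended on their own best marker. When each nucleus's own best marker was left out of both its fragments and its expectation, 43 of 408 nuclei (10.5%) still passed, 17 in sham and 26 in stroke. These 43 are called multi-marker nuclei, and the other 365 (214 in sham and 151 in stroke), which no longer passed, are called top-dependent nuclei. In 186 and 105 of the latter the top marker held at least 50% of the marker fragments, and in the rest less, down to 20%. This division was chosen after the data had been seen. Summed over 30 endothelial genes that the gate did not use, accessibility was 3.89 times that of the 9921 kept nuclei outside the gate in the multi-marker nuclei and 1.08 times in the top-dependent nuclei. For 22 mural genes it was 2.02 and 1.06 times, and for 30 fibroblast genes 1.16 and 1.14 times. The endothelial sum thus went against an endothelial label of the top-dependent nuclei, while the fibroblast sum did not tell the sets apart.

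Regions chosen for their cuts in the multi-marker nuclei can be shown as sequence. The 6 bins of 300 bp printed here had the highest lower bounds of the ratio of cut sites in the multi-marker nuclei to those in other kept nuclei, among bins more than 1 kb from a gene start and outside marker flanks. They are written 5′ to 3′ on the + strand of mm10 (GRCm38), from the reference genome. Capitals mark matches to the ETS letters CAGGAA and the AP-1 letters TGANTCA, searched on both strands, and such a match is a description of the letters.
Foxo1 bin: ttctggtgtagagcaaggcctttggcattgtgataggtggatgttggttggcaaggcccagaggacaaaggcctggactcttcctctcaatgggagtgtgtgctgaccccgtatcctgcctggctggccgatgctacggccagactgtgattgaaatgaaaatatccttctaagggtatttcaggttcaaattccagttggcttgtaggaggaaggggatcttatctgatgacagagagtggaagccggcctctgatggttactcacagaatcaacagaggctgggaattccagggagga
Foxl1 bin: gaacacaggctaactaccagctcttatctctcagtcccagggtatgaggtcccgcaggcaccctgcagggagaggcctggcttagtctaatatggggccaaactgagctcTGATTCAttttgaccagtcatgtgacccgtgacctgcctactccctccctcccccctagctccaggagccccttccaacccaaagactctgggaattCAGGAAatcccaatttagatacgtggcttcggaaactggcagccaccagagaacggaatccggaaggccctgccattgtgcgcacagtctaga
Ebf1 bin: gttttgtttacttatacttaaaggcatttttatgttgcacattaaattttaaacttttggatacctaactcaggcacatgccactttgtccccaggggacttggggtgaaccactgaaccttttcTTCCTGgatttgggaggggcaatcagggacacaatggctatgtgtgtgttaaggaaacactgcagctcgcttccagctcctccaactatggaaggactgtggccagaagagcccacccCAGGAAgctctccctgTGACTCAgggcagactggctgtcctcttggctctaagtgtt
Rhobtb1 bin: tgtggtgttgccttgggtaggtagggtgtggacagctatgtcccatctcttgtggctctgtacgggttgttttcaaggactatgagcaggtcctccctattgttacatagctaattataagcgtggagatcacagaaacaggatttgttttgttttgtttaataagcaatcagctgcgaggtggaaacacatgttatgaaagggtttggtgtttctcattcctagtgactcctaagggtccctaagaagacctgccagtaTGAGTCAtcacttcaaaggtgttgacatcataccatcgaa
Tmem270 bin: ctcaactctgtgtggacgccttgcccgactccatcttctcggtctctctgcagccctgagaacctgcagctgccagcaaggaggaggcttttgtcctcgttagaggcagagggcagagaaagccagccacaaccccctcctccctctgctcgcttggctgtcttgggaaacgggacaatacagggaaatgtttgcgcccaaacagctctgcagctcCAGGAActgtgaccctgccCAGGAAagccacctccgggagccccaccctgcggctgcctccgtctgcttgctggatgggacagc
Acer2 bin: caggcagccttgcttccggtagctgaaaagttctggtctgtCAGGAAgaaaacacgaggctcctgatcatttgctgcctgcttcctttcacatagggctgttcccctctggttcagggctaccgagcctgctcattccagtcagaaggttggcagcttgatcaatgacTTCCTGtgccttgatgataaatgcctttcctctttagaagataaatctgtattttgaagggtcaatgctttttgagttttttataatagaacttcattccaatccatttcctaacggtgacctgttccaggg

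The Foxo1 bin at chr3:52383301-52383600 lay between genes, 115.1 kb downstream of the start of Foxo1, a forkhead factor of vessel growth. It was cut 16 times in 7 multi-marker nuclei, 2 sham and 5 stroke, and 15 times in the other kept nuclei. For all bins, the other kept nuclei were the 9921 outside the gate without 38 that passed a gate on endothelial genes outside the rule. It held neither set of letters. The Foxl1 bin at chr8:121262701-121263000 was intronic in Gm20388, 134.9 kb from the start of Foxl1, was cut 14 times in 3 sham and 3 stroke nuclei, and held 1 ETS and 1 AP-1 match. The Ebf1 bin at chr11:44975101-44975400 was intronic in Ebf1, which encodes a factor of pericytes and fibroblasts, was cut 13 times in 3 sham and 3 stroke nuclei, and held 2 ETS matches and 1 AP-1 match. The Rhobtb1 bin at chr10:69276001-69276300 was intronic in Rhobtb1, was cut 14 times in 4 sham and 5 stroke nuclei, and held 1 AP-1 match. The Tmem270 bin at chr5:134887801-134888100 lay between genes, was cut 15 times in 5 sham and 4 stroke nuclei, and held 2 ETS matches. The Acer2 bin at chr4:86898901-86899200 was intronic in Acer2, which encodes an alkaline ceramidase, was cut 14 times in 2 sham and 5 stroke nuclei, and held 2 ETS matches. No bin of the 6 had more than 5 of its cuts in 1 multi-marker nucleus, and each had to be cut in at least 6 of them to enter. The bins were also counted in 44 nuclei, outside the 43, that passed the gate on endothelial genes outside the rule. There they were cut 1, 3, 2, 4, 1 and 3 times, in the printed order, counts too small to judge a single bin.

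The 2 libraries held 76959104 fragments in sham and 96465679 in stroke. Of 6979 and 8740 barcodes called as cells, 5949 and 4380 passed the filter, with a median of 11532 and 11225 fragments per nucleus and 39.3% and 33.8% of fragments in peaks. The libraries shared 34 kept barcodes, and no barcode was gated in both. No doublets were removed. Multi-marker nuclei were shallower than the rest, with a median of 6269 fragments in sham and 8084.5 in stroke, against 13511.5 and 12023 in top-dependent nuclei and 11493 and 11220 in other kept nuclei.

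The gate took 3.88% of kept nuclei in sham (3.41 to 4.41) and 4.04% in stroke (3.48 to 4.67), a ratio of stroke to sham of 1.04 (0.851 to 1.27). The multi-marker nuclei were 0.286% of kept nuclei in sham (0.167 to 0.457) and 0.594% in stroke (0.388 to 0.869), a ratio of 2.08 (1.09 to 4.08). As shares of the gated nuclei they were 7.36% in sham and 14.7% in stroke. Without the filter on fragments in peaks the ratio was 1.40. Among nuclei thinned to 5000 fragments, of which 8 in sham and 13 in stroke passed with their top marker left out, it was 2.21. The endothelial list outside the rule, gated in the same way with each nucleus's top gene left out, selected 29 sham nuclei (0.487%) and 44 stroke nuclei (1.0%), a ratio of 2.06 (1.26 to 3.42). Without that leave-out the same list selected 269 sham nuclei (4.52%) and 163 stroke nuclei (3.72%), a ratio of 0.823 (0.673 to 1.003), on the other side of 1. The stroke library was made from ipsilateral hemispheres and the sham library from brains, so condition, tissue and library cannot be told apart in these ratios.

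The independent endothelial gate also separated the gated nuclei. It was passed by 29 of the 43 multi-marker nuclei (67.4%), by 6 of the 365 top-dependent nuclei (1.64%) and by 38 of the 9921 other kept nuclei (0.383%). The same leave-out applied to the lists of other cell types kept 423 of 845 astrocyte-gated nuclei (50.1%), 98 of 431 oligodendrocyte-gated nuclei (22.7%), 106 of 489 microglia- and macrophage-gated nuclei (21.7%), 48 of 561 glutamatergic-gated nuclei (8.56%) and 1 of 116 granulocyte-gated nuclei (0.862%). The 10.5% of the vascular gate thus lay inside the range of the other lists. The lists differ in number and size of genes, whose part in these shares was not tested. Of the gated nuclei, 87 of 231 in sham and 68 of 177 in stroke also passed the gate of another cell type. Of the multi-marker nuclei, 2 of 17 and 6 of 26 did. Among other kept nuclei, 1914 of 5718 in sham and 1514 of 4203 in stroke passed such a gate.

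**Figure D1:**
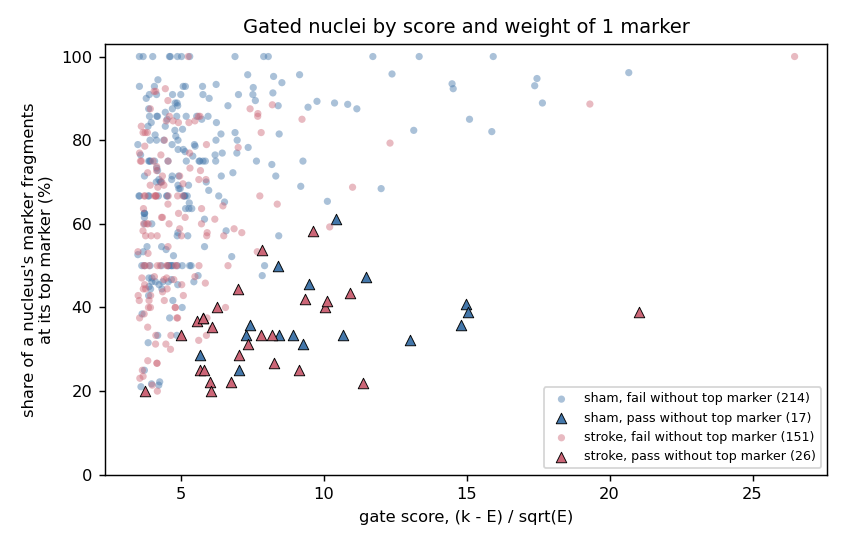
Each point is a gated nucleus, with the gate score on the x axis and the percent of its marker fragments that lay at its top marker on the y axis. The 43 multi-marker nuclei (triangles) lie at 20 to 61.1% and reach a score of 21.03, while top-dependent nuclei (dots) with the highest scores, up to 26.5, had most or all fragments at 1 marker.

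In sham, 80 of the gated nuclei had 2 or more fragments at only 1 of the 16 markers, 85 at 2 markers and 39 at 3. In stroke these counts were 35, 60 and 51. At most 7 markers were reached, by 2 stroke nuclei. The median share of a nucleus's marker fragments at its top marker was 72.2% in sham and 57.1% in stroke. The lowest score inside the gate was 3.501, a sham nucleus with 19 marker fragments against 8.68 expected, 15 of them at Col1a2. The highest scores outside were just under 3.5 in stroke and 3.499 in sham, with 8 and 6 fragments, and 3 further nuclei passed the score with under 5 fragments.

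The top markers were unevenly spread over the rule. Erg, which has the longest window (229.4 kb), was the top marker of 126 gated nuclei, Flt1 (166.4 kb) of 65, Pecam1 (98.4 kb) of 59 and Pdgfrb (41.9 kb) of 57, while Tek (137.7 kb) was the top marker of 14. Cldn5, which encodes the main claudin of brain endothelium in a window of 3.42 kb, was the top marker of none. Runs of this kind were common to long genes. Among genes with windows of 200 to 300 kb, the median gene had 112 kept nuclei with at least 10 fragments and a score of at least 3.5 in its window alone, against 95 for Erg, while for windows of 20 to 50 kb the median was 6. Pdgfrb stood higher within its length class, with 37 such nuclei, a count at or above that of 87.8% of genes of like length.

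The excess ran past the top marker in both sets. In the top-dependent nuclei the flanks from 0 to 100 kb beyond the top marker's window held 2804 fragments against 628.7 expected, a ratio of 4.46 (4.30 to 4.63), and 272 of 365 nuclei were above expectation. In the multi-marker nuclei the same flanks held 169 fragments against 43.9 expected, a ratio of 3.85 (3.29 to 4.48), and 31 of 43 nuclei were above expectation. The flanks of the other 15 markers stood at 1.09 (1.07 to 1.12) in the top-dependent and 1.39 (1.29 to 1.49) in the multi-marker nuclei. The windows of those 15 markers stood at 1.44 times expectation in the top-dependent nuclei and at 4.93 in the multi-marker nuclei, which the leave-out chose for this excess.

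Fragments at Erg, which encodes an ETS factor required for endothelial identity, were laid out along the gene. Of the top-dependent nuclei with Erg as top marker, the 40 with the most Erg fragments are shown, so their number of fragments was fixed by the choice, at a median of 20 in the window. A sham nucleus held 50, for a score of 20.7, and a stroke nucleus held 39, of which 38 (97.4%) lay within 50 kb. The most shared 2 kb stretch of these 40, at 190 to 192 kb into the gene, was shared by 12 nuclei and held 1.68% of their fragments against 0.524% in other kept nuclei, and the next, at 144 to 146 kb, was shared by 11 and held 1.89% against 2.41%. In the 40 multi-marker nuclei with any Erg fragment the median was 3, and 13 of them shared the stretch from 146 to 148 kb, which held 11.3% of their fragments against 3.11% in other kept nuclei. A second stretch, from 126 to 128 kb, was shared by 11 and held 9.04% against 0.536%. The median share of a nucleus's fragments in its densest 50 kb was 68.6% in the top-dependent and 80.0% in the multi-marker nuclei, which have few fragments each. The sets differ in Erg fragments, 954 against 177, so their counts of nuclei per stretch cannot be compared directly.

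**Figure D2:**
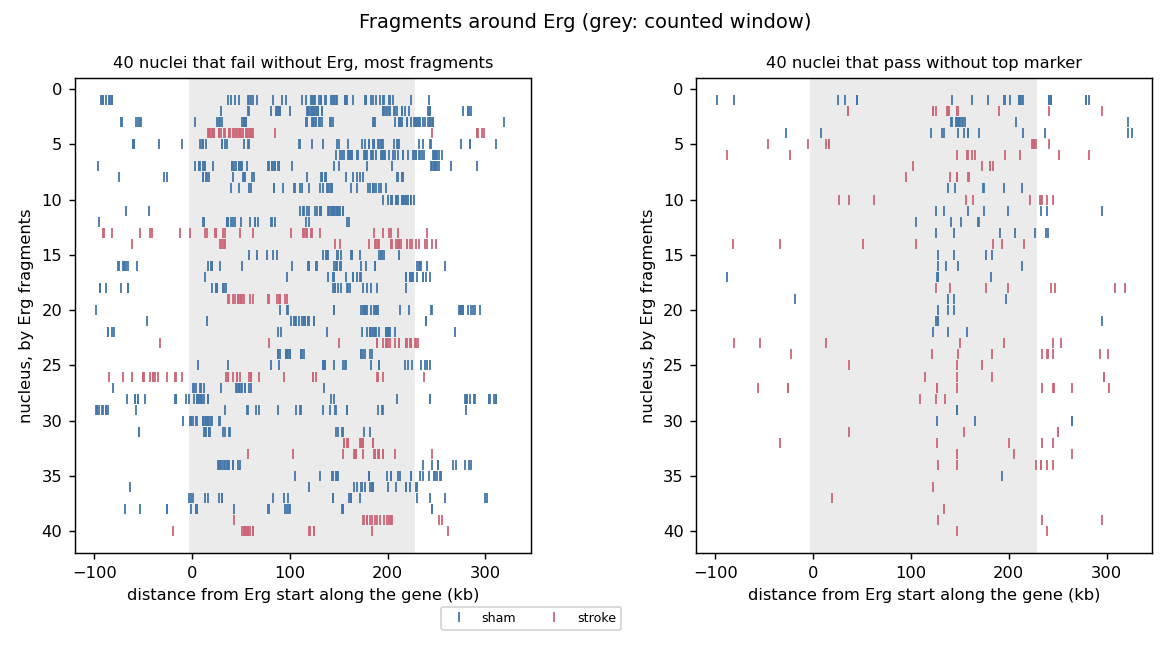
Each tick is a fragment at its distance in kb from the Erg start, with 1 nucleus per row ordered by Erg fragments, sham in blue and stroke in red, and the counted window in grey. The left panel shows the 40 top-dependent nuclei chosen for the most Erg fragments (median 20), and the right panel the 40 multi-marker nuclei with any (median 3), of which 11 have ticks at 126 to 128 kb and 13 at 146 to 148 kb.

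The rule's endothelial markers chose the multi-marker nuclei, so their levels there are a description. Erg stood at 704 CPM (fragments in the window scaled to 1000000 fragments of the set) in sham and 354 in stroke, against 69.1 and 76.9 in other kept nuclei. Flt1, which encodes VEGF receptor 1, stood at 461 and 310 CPM against 32.1 and 37.2. Pecam1, the adhesion molecule CD31, stood at 412 and 258 CPM against 39.1 and 45.5. These 3 markers were several times above other nuclei in both libraries, with sham above stroke. Cldn5 was covered by 11 fragments in 9 of 17 sham nuclei and 20 in 12 of 26 stroke nuclei, or 89.0 and 80.5 CPM against 2.31 and 2.12. The angiopoietin receptor gene Tek stood at 129 and 149 CPM against 12.3 and 17.5. Emcn, which encodes endomucin of capillaries and veins, stood at 32.4 and 36.2 CPM against 27.0 and 25.5, and its intervals in the multi-marker nuclei (8.81 to 82.8 in sham and 16.6 to 68.7 in stroke) took in the other nuclei.

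Each fibroblast or mural marker of the rule other than Pdgfrb was covered in at most 6 of the 43. The collagen gene Col1a2 had 0 fragments in the 17 sham nuclei and 12 in the 26 stroke nuclei, the pericyte gene Rgs5 had 0 and 6, and Dcn, which encodes the proteoglycan decorin, had 0 and 3. A count of 0 among the 123650 fragments of the sham nuclei allows up to 29.8 CPM (exact 95% bound), so an absence was not shown at this depth. Pdgfrb, the PDGF receptor gene of pericytes, stood at 267 and 241 CPM against 39.5 and 42.8 and was covered in 7 and 10 nuclei.

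Among the 408 gated nuclei, scored again on the markers of each lineage apart, 160 sham and 117 stroke nuclei passed on endothelial, 20 and 25 on fibroblast and 47 and 33 on mural markers. Among the multi-marker nuclei these numbers were 17 and 21, 0 and 3, and 3 and 4. In the 38 multi-marker nuclei of the endothelial gate the endothelial genes outside the rule summed to 2969.5 CPM (2783.2 to 3165), against 690.3 in other kept nuclei, so these are endothelial-like by markers the gate did not use. In the 3 stroke nuclei of the fibroblast gate the fibroblast genes outside the rule summed to 3031.6 CPM (2469.3 to 3683.6) against 780.3. In the 7 of the mural gate the mural genes outside the rule summed to 958.3 CPM (790.5 to 1151.2) against 418.4, and the fibroblast genes to 1269.3. The endothelial genes outside the rule summed to 462.3 CPM (348.3 to 601.8) in these 7, below the 690.3 of other kept nuclei. The mural sum was 883.0 CPM (782.8 to 992.5) in the 38 nuclei of the endothelial gate, a set that overlaps the 7, since nuclei could pass more than 1 gate. Without the leave-out the same sums were 955.3 CPM for the endothelial list in 277 endothelial-gated nuclei, 1347.5 for the fibroblast list in 45 fibroblast-gated nuclei and 469.4 for the mural list in 80 mural-gated nuclei, each closer to the other kept nuclei.

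Over all 43, endothelial genes outside the rule stood at 2976.1 CPM in sham and 2543.0 in stroke, against 680.3 and 704.2 in other kept nuclei, a ratio of 3.89 (3.65 to 4.14) over both libraries. In top-dependent nuclei they stood at 688.6 and 841.0 CPM, a ratio of 1.08 (1.05 to 1.12). The list was thus raised in both libraries in the multi-marker nuclei and close to the other nuclei in the top-dependent ones. The mural list was raised 2.02 times (1.80 to 2.25) and the fibroblast list 1.16 times (1.04 to 1.30) in the multi-marker nuclei, and the mural list shares Foxf2 with the endothelial one. In top-dependent nuclei the mural list stood at 1.06 (1.02 to 1.11) and the fibroblast list at 1.14 (1.11 to 1.18).

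Over both libraries together, most lists of other cell types were lower or level in the multi-marker nuclei. The ratio to other kept nuclei was 0.680 (0.576 to 0.796) for astrocyte genes, 0.798 (0.637 to 0.987) for oligodendrocyte genes, 0.757 (0.642 to 0.888) for glutamatergic and 0.786 (0.571 to 1.06) for GABAergic neuron genes. It was 1.06 (0.892 to 1.25) for microglia and macrophage genes, 1.20 (0.908 to 1.55) for oligodendrocyte precursor (OPC) genes, 0.667 (0.439 to 0.971) for lymphocyte genes, 0.569 (0.356 to 0.861) for choroid plexus genes and 0.442 (0.228 to 0.772) for ependymal genes. Granulocyte genes stood at 2.61 (1.78 to 3.69), where Mmp9, which encodes a gelatinase, gave 26 of the fragments, 14 of them in 1 sham nucleus, and S100a8 and S100a9 had 0. The libraries differed in several of these lists. The OPC ratio was 2.11 (1.44 to 2.98) in sham and 0.744 (0.486 to 1.09) in stroke, that of microglia and macrophage genes 1.42 (1.08 to 1.83) and 0.851 (0.677 to 1.06), and that of granulocyte genes 6.68 (4.39 to 9.75) and 0.605 (0.196 to 1.42). In top-dependent nuclei the same lists lay between 0.894 and 1.19.

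**Figure D3:**
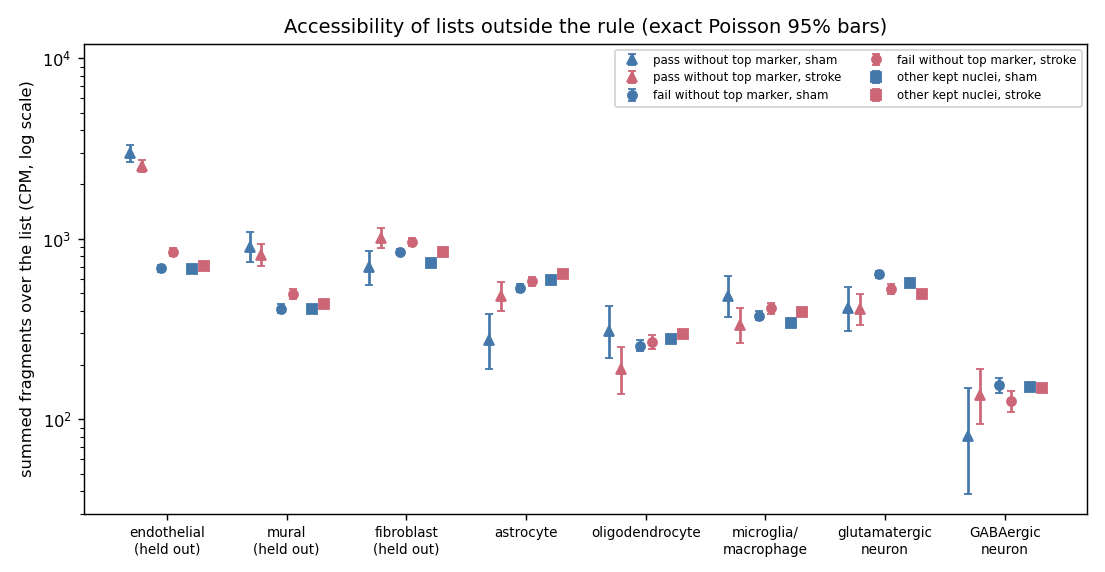
Summed CPM (log scale) over gene lists that the gate did not use, by set of nuclei and library (triangles for multi-marker, circles for top-dependent and squares for other kept nuclei), with exact Poisson 95% bars for counting error. Endothelial genes in the multi-marker nuclei stood at 2976.1 CPM in sham and 2543.0 in stroke, above all other sets, while over both libraries the top-dependent nuclei lay at 0.909 to 1.14 times the other kept nuclei in the 8 lists drawn.

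Across protein-coding genes outside the marker windows, the gated nuclei as a whole hardly differed from other kept nuclei. Of 14826 genes with at least 40 expected fragments, 6 were at least 2-fold higher (0.0405%) and 1 at least 2-fold lower (0.00674%). In top-dependent nuclei 3 of 14616 genes were higher (0.0205%) and 5 lower (0.0342%). In the multi-marker nuclei 750 of 12898 genes with at least 5 expected fragments were higher (5.81%) and 1779 lower (13.8%). The counts behind many of these genes are small. Of the 30 endothelial genes outside the rule, 16 had enough expected fragments, and 13 of them were at least 2-fold higher and 0 lower, with a median log2 ratio of 2.12 against -0.10 over all genes tested. For the mural list 2 of 11 were higher and 1 lower, with a median of 0.05, and for the fibroblast list 1 of 16 was higher and 3 lower, with a median of -0.33. The fibroblast list thus had a sum above other nuclei and a median below them.

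The 20 leading genes of the multi-marker nuclei were ranked by the lower bound of their ratio to other kept nuclei, among genes with at least 5 expected fragments. Predicted genes, with symbols of the Gm, Rik or accession kind, were left out of the ranking. The ratio sums both libraries, with 248529 fragments from stroke and 123650 from sham in the multi-marker nuclei against 49472415 and 69198955 in other kept nuclei, so a summed ratio can lie outside the ratios of the libraries, as for Vwf. Adgrf5, which encodes an adhesion G protein-coupled receptor of endothelium, had 31 fragments in sham and 29 in stroke over 22 nuclei and stood 9.89 times above other kept nuclei (7.52 to 12.8), at 17.9 in sham and 5.96 in stroke. Vwf, which encodes von Willebrand factor of platelet adhesion, stood at 6.96 (5.79 to 8.29) over 33 of the 43 nuclei, at 6.67 in sham and 6.32 in stroke. Ptprb, the vascular endothelial phosphatase gene, stood at 6.17 (5.06 to 7.46) over 30 nuclei. These 3 were thus high in both libraries, and Vwf and Ptprb were covered in most of the multi-marker nuclei.

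Transcription factor genes were among them. Fli1 stood at 6.46 (5.01 to 8.20) and Ets1 at 4.70 (3.72 to 5.86), both encoding ETS factors, and Lef1, a nuclear effector of Wnt signalling, at 5.10 (3.79 to 6.72). Mecom, a zinc finger factor of arterial and blood-forming cells, stood at 5.50 (4.67 to 6.43) over 32 nuclei. Outside the ranking, with under 5 expected fragments, Sox17, an arterial endothelial factor, had 17 fragments over 13 nuclei and stood at 15.2 (8.77 to 24.7), and Foxq1, a forkhead factor of brain endothelium, had 15 fragments and stood at 11.5 (6.39 to 19.2). Within it Eng, the TGF-beta co-receptor endoglin, stood at 6.43 (4.93 to 8.26), and Sparc, a matricellular protein gene, at 7.09 (4.92 to 9.90). The other leading genes were Acer2, Rbpms, Nod1, Adgrl4, Il1r1, St3gal6, Cgnl1, Flvcr2, Arhgap31, Egfl7 and Ggact, at 4.77 to 6.74, and all 20 leading genes were above other nuclei in both libraries. The largest counts from 1 nucleus were 20 of 128 fragments at Vwf, 18 of 63 at Il1r1, 16 of 62 at St3gal6 and 16 of 74 at Cgnl1. The window of Egfl7 overlaps that of Agpat2, so their fragments cannot be told apart there.

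Within 1 Mb of a rule marker lay 0 of the 20 leading genes of the multi-marker nuclei and 6 of the 20 of the top-dependent nuclei, so 14 of the latter lay elsewhere. Of the genes past 2-fold, 16 of 750 did in the multi-marker and 3 of 3 in the top-dependent nuclei, against 2.05% of genes tested in either. The 3 were Cdx1, 4.95 kb from Pdgfrb, at 3.29 (2.79 to 3.85), Scn4a, 298.9 kb from Pecam1, at 2.17 (1.82 to 2.58), and the microglial receptor gene Csf1r, 13.5 kb from Pdgfrb, at 2.04 (1.78 to 2.31). Cdx1 encodes an intestinal homeobox factor and Scn4a a muscle sodium channel.

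**Figure D4:**
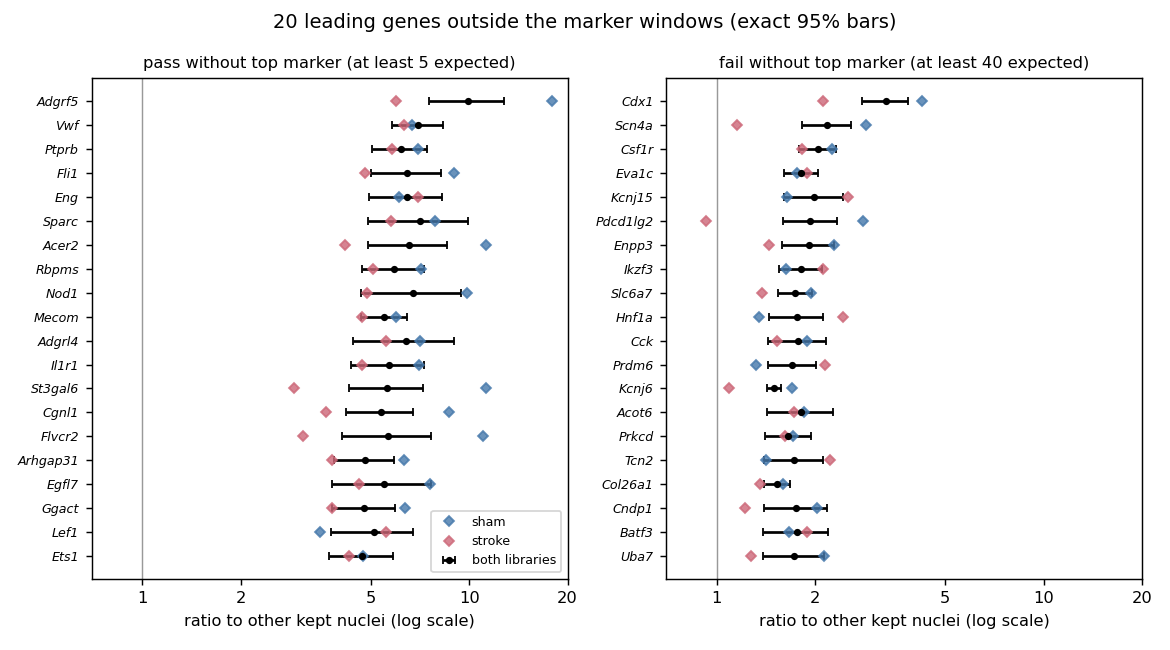
Ratio of CPM to other kept nuclei (log scale) for the 20 leading genes outside the marker windows in multi-marker nuclei (left, genes with at least 5 expected fragments) and top-dependent nuclei (right, at least 40), with both libraries pooled in black, exact 95% bars, and each library as a diamond. On the left the pooled ratios run from 4.70 to 9.89 and every diamond lies above 1, and on the right they run from 1.5 to 3.29.

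The pathways of the barrier were examined by fixed lists, for the multi-marker nuclei against other kept nuclei. Junction genes summed to 1.82 times the level of other nuclei (1.68 to 1.97), with 5 of 14 tested at least 2-fold higher and 1 lower, where 5.81% of all genes tested were higher and 13.8% lower. The counts take in genes with at least 5 expected fragments, and Ocln, Esam, Abcb1a, Slco1c1, Robo4, Icam2, S1pr1 and Klf2, named by their intervals, had fewer. Ocln, which encodes occludin, stood at 9.57 (6.81 to 13.1) over 24 nuclei, Esam at 6.79 (4.63 to 9.63) and Cdh5, VE-cadherin, at 4.04 (2.77 to 5.68). Transporter genes of the barrier summed to 1.91 times (1.77 to 2.06), with 8 of 16 tested higher and 0 lower. By their ratios Abcb1a, the P-glycoprotein gene, stood at 7.44 (4.58 to 11.4), Slco1c1, a thyroid hormone transporter gene, at 4.26 (2.59 to 6.60), Abcg2 at 3.96 (2.69 to 5.64) and Slc2a1, the glucose transporter GLUT1, at 3.22 (2.39 to 4.24).

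Wnt and beta-catenin pathway genes summed to 2.34 times (2.17 to 2.52), with 8 of 16 tested higher and 0 lower. Over all genes tested 5.81% were higher and 13.8% lower, here and for the next 2 lists. Besides Lef1, the feedback inhibitors Apcdd1 and Nkd1 stood at 4.39 (2.98 to 6.25) and 3.67 (2.83 to 4.67). The VEGF, angiopoietin and Tie list, with the rule's own receptors left out, summed to 1.99 times (1.83 to 2.17), with 6 of 20 higher and 0 lower, and included Ptprb and Robo4, a receptor that stabilises endothelium, the latter at 7.52 (4.80 to 11.3). Leukocyte adhesion and venous genes summed to 3.41 times (3.09 to 3.75), with 7 of 10 higher and 1 lower. Besides Vwf the list held the adhesion gene Icam2 at 8.88 (4.55 to 15.7), Il1r1, the interleukin 1 receptor, at 5.69 (4.36 to 7.29), and Tnfrsf1a, a tumour necrosis factor receptor, at 4.56 (3.02 to 6.61). Of the 63 Il1r1 fragments, 18 lay in 1 nucleus.

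The other pathway lists summed to 1.48 to 1.87 times other nuclei. Their counts stand against 5.81% higher and 13.8% lower over all genes tested. TGF-beta and BMP genes summed to 1.87 times (1.73 to 2.01), with 7 of 21 higher and 0 lower, among them Smad6 at 4.05 (3.08 to 5.24) and Tgfbr2 at 3.70 (2.82 to 4.78). PDGF and Notch genes summed to 1.55 times (1.39 to 1.73), with 3 of 14 higher and 1 lower, and held S1pr1, a sphingosine phosphate receptor gene of vessels, at 7.0 (4.31 to 10.8). Matrix and scar genes summed to 1.48 times (1.37 to 1.59), with 8 of 27 higher and 2 lower, and besides Sparc the basement membrane collagen gene Col4a1 stood at 2.20 (1.73 to 2.77). Hypoxia genes summed to 1.79 times (1.62 to 1.97), with 5 of 17 higher and 0 lower, among them Epas1, the hypoxia factor of endothelium, at 4.34 (3.37 to 5.51). AP-1 and immediate early genes summed to 1.67 times (1.51 to 1.84), with 6 of 18 higher and 0 lower, and held Klf2, a flow-responsive factor, at 4.68 (2.93 to 7.12). The medians of the 10 pathway lists were 0.25 to 1.24 (log2 ratio) against -0.10 over all genes tested. In top-dependent nuclei all 10 lists lay between 0.971 and 1.08 times other nuclei.

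Most tested members of the mural and fibroblast lists were not 2-fold above other nuclei, with 2 of 11 and 1 of 16 higher and 1 and 3 lower. Over all genes tested 5.81% were higher and 13.8% lower, and the fibroblast counts were near these shares. The members named here are a part of the 8 mural and 9 fibroblast members with intervals above 1, while 1 and 3 had intervals below 1. Ebf1, the gene that holds one of the printed bins, stood at 4.06 (3.33 to 4.91) over 31 nuclei, and Foxf2, a factor of pericytes and of barrier endothelium, at 8.45 (4.33 to 14.9). The smooth muscle genes Myh11 and Cnn1 stood at 3.01 (2.06 to 4.26) in 8 nuclei and 5.02 (2.66 to 8.64) in 4 nuclei. In the fibroblast list Twist1 had 5 fragments, all in stroke nuclei, and Foxc1 stood at 3.80 (1.63 to 7.53) in 6 nuclei. Of these, Foxf2, Cnn1, Twist1 and Foxc1 had under 5 expected fragments, stood outside those counts and were named for being high.

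Accessible bins were compared in the same way. In the multi-marker nuclei 3437 bins of 300 bp outside marker flanks were open in at least 6 nuclei, and 346 were at least 8-fold above other kept nuclei, 297 of them distal, over 1 kb from a gene start. For bins, the other kept nuclei leave out the 38 that passed the independent endothelial gate. The multi-marker nuclei chose these bins, so the level was checked in 44 other nuclei (17 sham and 27 stroke) that passed the independent endothelial gate, over the 288 distal bins outside that list's genes. The bins stood at 5.54 times the other kept nuclei in these 44 (5.20 to 5.89) and at 1.28 (1.23 to 1.33) in top-dependent nuclei, 6 of which are among the 44. Distal bins level between the multi-marker and other nuclei (350) stood at 1.09 (1.07 to 1.12) and 0.977 (0.970 to 0.984). The endothelial-like accessibility thus extended beyond the windows of the genes of either list. Bins in the flanks of the endothelial genes outside the rule were kept, so the check is not fully free of the genes that chose the 44.

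**Figure D5:**
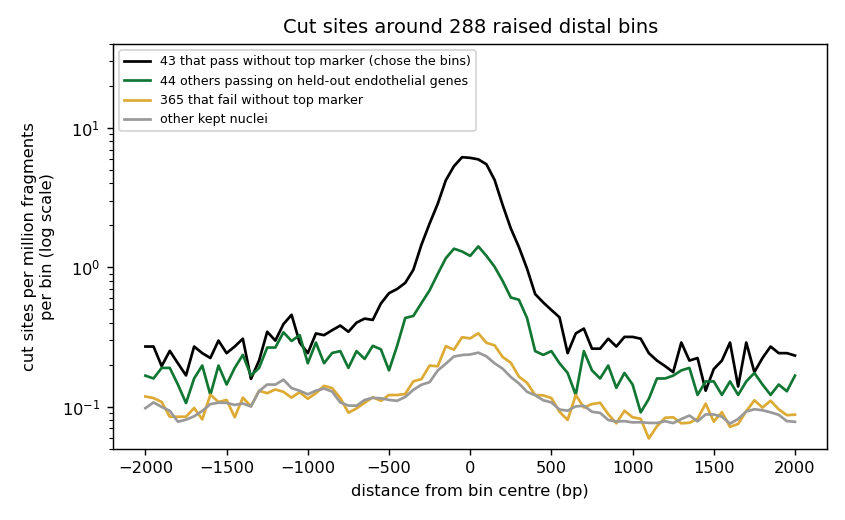
Cut sites scaled to 1000000 fragments of each set, per bin (log scale), by distance in bp from the centre of 288 distal bins that were raised in the multi-marker nuclei and lie outside the listed endothelial genes. The multi-marker nuclei chose the bins. The 44 other nuclei that passed on endothelial genes outside the rule peak at the centre above top-dependent nuclei and other kept nuclei. The other kept nuclei drawn leave out the 38 that are among the 44.

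The raised distal bins held the ETS letters CAGGAA more often than other open bins. These letters, as marked in the printed sequences, were found in 60.3% of the 297 raised distal bins (54.5 to 65.9), in 27.1% (22.5 to 32.1) of the 350 level distal bins, in 31.8% of 17246 distal bins open in other kept nuclei and in 27.4% of 839503 bins taken evenly along the genome. A second ETS form, CCGGAA, was found in 11.4% (8.06 to 15.6) of the raised bins, below the 24.0% (19.6 to 28.8) of level bins and above the 8.01% of bins open in other nuclei. AP-1 letters TGANTCA were found in 24.9% (20.1 to 30.2), against 15.6% and 8.87%. The FOX letters TGTTTAC and the SOX letters ACAATGG were each in 9.09% (6.08 to 13.0), against 2.65% and 2.79% of bins open in other nuclei and 4.50% and 5.25% of the genome. GATA letters AGATAA were in 16.2% against 9.40% and 19.4%, and TCF/LEF letters ATCAAAG in 3.70% against 2.74% and 6.18%. The neurogenic bHLH letters CATCTG were less frequent, in 16.2% against 28.3% and 21.8%. The NFI letters TTGGCA were in 26.3% (21.4 to 31.7) against 19.5% and 14.4%, and the KLF letters CCACACCC in 7.07% against 3.44% and 1.80%. In the level bins these shares were 2.86% for AP-1, 2.29% for FOX, 3.71% for SOX, 3.71% for GATA, 1.14% for TCF/LEF, 11.1% for the bHLH, 8.0% for the NFI and 3.43% for the KLF letters. Median GC content was 54.0% in raised and 63.0% in level distal bins, 52.7% in bins open in other nuclei and 41.3% over the genome. All letters were searched on both strands and may overlap one another, and absence of a match says only that these letters are not in the bin.

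Between conditions, the gated nuclei were compared gene by gene over all 408. Of 14911 genes with at least 40 fragments, 285 were at least 2-fold higher in stroke (1.91%) and 182 at least 2-fold lower (1.22%), with a median log2 ratio of -0.04 over all genes. In top-dependent nuclei alone these were 1.75% and 1.36%. In the multi-marker nuclei, with at least 10 fragments, 17.9% of 8681 genes were higher and 17.6% lower, a spread at which single genes cannot be read.

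Genes higher in stroke among the gated nuclei included these. Vim, which encodes vimentin of endothelium, fibroblasts and reactive glia, had 15 fragments in 14 sham nuclei and 56 in 29 stroke nuclei, a ratio of 5.35 (2.99 to 10.2). Nfe2l2, which encodes the oxidative stress factor NRF2, had 28 and 72, a ratio of 3.69 (2.35 to 5.93). Nod1, an innate receptor gene, had 31 and 81, a ratio of 3.75 (2.45 to 5.86), and Lrrk1 had 101 and 212, a ratio of 3.01 (2.36 to 3.85). Ikzf1 and Batf, factor genes of blood cells, stood at 4.66 (2.79 to 8.12) and 4.66 (2.62 to 8.74), with 17 of 65 and 13 of 52 stroke fragments from 1 nucleus, as were 18 of the 81 of Nod1. The others were Skint6, Icosl, Pilra and S100a16, at 4.73 to 5.73. The ratios of these genes in other kept nuclei were not computed, so a difference particular to the gated nuclei was not shown.

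Genes lower in stroke included these. Zmat4 went from 336.8 CPM in sham to 139.4 in stroke, a ratio of 0.414 (0.362 to 0.472), and Kcnj6, a neuronal potassium channel gene 359.5 kb from Erg, from 417.4 to 195.0 CPM, a ratio of 0.467 (0.417 to 0.523). In sham, 58 of the 1015 Zmat4 fragments and 63 of the 1258 Kcnj6 fragments lay in 1 nucleus. Abcc1, a drug exporter gene, had 309 fragments in sham and 95 in stroke, a ratio of 0.441 (0.346 to 0.556), with 48 of the sham fragments in 1 nucleus. The others were Ccdc183, Grm6, Tbx10, Otop3, Rab25, B4galnt3 and Smim1, at 0.0956 to 0.373. For the genes lower in stroke, ratios in other kept nuclei were likewise not computed.

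Endothelial genes outside the rule were higher in stroke when all gated nuclei were summed. The list stood at 782.4 CPM in sham and 1042.2 in stroke, a ratio of 1.33 (1.26 to 1.41), with 2 of 22 genes tested at least 2-fold higher and 0 lower, where 1.91% of all genes tested were higher and 1.22% lower, and a median log2 ratio of 0.61. Cdh5 had 64 and 90 fragments, a ratio of 2.02 (1.45 to 2.82), and She, an adaptor gene, 37 and 55, a ratio of 2.13 (1.38 to 3.33). Within the multi-marker nuclei alone the list went the other way, from 2976.1 CPM in sham to 2543.0 in stroke, a ratio of 0.854 (0.750 to 0.974). In these nuclei the median share of fragments in peaks was 41.0% in sham and 32.9% in stroke and the median enrichment at gene starts 6.08 and 4.90, which moved with the list, and their part was not tested. In top-dependent nuclei it stood at 1.22 (1.14 to 1.31) and in other kept nuclei at 1.04 (1.02 to 1.05). The share of multi-marker nuclei among the gated nuclei, 7.36% in sham and 14.7% in stroke, moved with the summed level, and its part in the result was not tested.

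The other vascular lists followed a like pattern over the gated nuclei. The mural list stood at a ratio of stroke to sham of 1.24 (1.14 to 1.34), with 0 of 19 genes past 2-fold, and the fibroblast list at 1.15 (1.08 to 1.22), with 4 of 23 higher and 0 lower, against the same 1.91% and 1.22% of all genes. Col3a1, which encodes a fibrillar collagen, had 14 and 32 fragments, a ratio of 3.28 (1.70 to 6.65), Aldh1a2, the retinoic acid enzyme gene of meninges, 41 and 62, a ratio of 2.17 (1.44 to 3.30), and Slc22a8, an organic anion transporter gene of meninges and barrier, 28 and 48, a ratio of 2.46 (1.51 to 4.07). Of the 30 fibroblast members, 11 had intervals above 1 and 3 below, and those named here are among the higher. In other kept nuclei the fibroblast list stood at 1.16 (1.14 to 1.17), the same size, so the gated nuclei did not stand apart in it.

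Barrier and signalling lists were also higher in stroke over the gated nuclei, each by less than 1.5-fold. In the same comparison the OPC list stood at 1.44 (1.24 to 1.68), above each of them, and the glutamatergic list at 0.817 (0.758 to 0.881). Junction genes stood at 1.21 (1.15 to 1.28), with 3 of 17 genes higher and 0 lower, against 1.91% and 1.22% of all genes tested, among them Ocln at 2.26 (1.5 to 3.44). Transporters stood at 1.12 (1.07 to 1.19), with 1 of 20 higher. Wnt pathway genes stood at 1.22 (1.15 to 1.29), with 0 of 18 past 2-fold, and VEGF and Tie genes at 1.17 (1.10 to 1.24), with 2 of 23 higher, Jag1, a Notch ligand gene, at 2.52 (1.75 to 3.65) and Calcrl, the adrenomedullin receptor gene, at 3.05 (1.83 to 5.25). No tested member of these lists was at least 2-fold lower. In other kept nuclei the stroke to sham ratio was 0.993 for junctions, 1.01 for transporters, 1.07 for the Wnt pathway and 1.09 for VEGF and Tie genes.

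Inflammatory, matrix and hypoxia lists gave values of the same order. No tested member of them was at least 2-fold lower, and over all genes tested 1.91% were higher and 1.22% lower. Leukocyte adhesion genes stood at 1.36 (1.25 to 1.48), with 1 of 16 higher, Tnfrsf1a at 2.72 (1.81 to 4.14). TGF-beta and BMP genes stood at 1.18 (1.12 to 1.24), with 2 of 23 higher, Tgfb2 at 2.60 (1.87 to 3.64) and Acvrl1, an endothelial BMP receptor gene, at 2.07 (1.44 to 2.99). PDGF and Notch genes stood at 1.19 (1.10 to 1.28), with 1 of 16 higher. Matrix genes stood at 1.24 (1.18 to 1.29), with 4 of 30 higher, among them Fn1, fibronectin, at 2.27 (1.47 to 3.55) and Lama4, a vascular laminin gene, at 2.03 (1.51 to 2.75). Hypoxia genes stood at 1.16 (1.09 to 1.25), with 2 of 18 higher, Epas1 at 2.01 (1.59 to 2.55) and the hexokinase gene Hk2 at 2.60 (1.77 to 3.87). AP-1 genes stood at 1.11 (1.04 to 1.18), with 1 of 20 higher, Bach1 at 2.08 (1.55 to 2.80). The medians of the 10 lists were 0.05 to 0.47 (log2 ratio), against -0.04 over all genes. With promoters only, the medians were -0.07 for junctions, -0.06 for transporters and -0.11 for hypoxia, against -0.09 over all genes. In other kept nuclei the summed ratios were 1.18 for leukocyte adhesion, 1.06 for TGF-beta and BMP, 1.06 for PDGF and Notch, 1.09 for matrix, 1.03 for hypoxia and 0.974 for AP-1 genes.

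In the multi-marker nuclei 8 of the 10 lists stood below 1, and leukocyte adhesion and matrix genes stood above it, as over the gated nuclei. The ratio of stroke to sham was 0.967 (0.816 to 1.15) for junctions, 0.910 (0.776 to 1.07) for transporters, 0.836 (0.714 to 0.979) for the Wnt pathway and 0.894 (0.751 to 1.07) for VEGF and Tie genes. It was 1.07 (0.869 to 1.32) for leukocyte adhesion, 0.798 (0.686 to 0.930) for TGF-beta and BMP, 0.686 (0.546 to 0.862) for PDGF and Notch, 1.17 (0.994 to 1.38) for matrix, 0.899 (0.734 to 1.11) for hypoxia and 0.813 (0.664 to 0.999) for AP-1 genes. The median log2 ratio of the junction list, 0.17, had the opposite sign to its sum. The fibroblast list stood at 1.46 (1.14 to 1.88) and the astrocyte list at 1.76 (1.19 to 2.65), in a stroke set that held 3 nuclei of the fibroblast gate against 0 in sham and 6 against 2 that also passed another cell type's gate. The part of these nuclei in the ratios was not tested. Of the other cell type lists, OPC genes stood at 0.404 (0.231 to 0.700) and oligodendrocyte genes at 0.615 (0.393 to 0.970). Microglia and macrophage genes stood at 0.688 (0.488 to 0.976) and granulocyte genes at 0.0921 (0.0277 to 0.243). Lymphocyte genes, with 2 and 25 fragments, stood at 6.22 (1.55 to 54.2). For glutamatergic, GABAergic, choroid plexus and ependymal genes the interval took in 1.

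Open bins of the multi-marker nuclei were lower in stroke whether raised or level. Scaled to the fragments of each set, the multi-marker nuclei had 0.748 times as many cuts in the raised distal bins in stroke as in sham (0.700 to 0.799), 0.727 times (0.695 to 0.760) in the level distal bins and 0.792 times (0.772 to 0.812) in the 1777 level bins at start sites. The raised bins thus did not stand apart in this ratio. In the 74 bins with AP-1 letters the ratio was 0.946 (0.827 to 1.08) and in the 223 without them 0.690 (0.640 to 0.745), while bins with and without ETS letters stood at 0.761 (0.699 to 0.828) and 0.728 (0.655 to 0.809). The bins were chosen over both libraries together, with 26 of the 43 nuclei from stroke. The median share of fragments in peaks was 41.0% in the sham and 32.9% in the stroke multi-marker nuclei and moved with these ratios, and its part in them was not tested.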

How the data were processed

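Fragments were counted in 1 sham and 1 stroke library. The authors aligned reads, removed duplicates, shifted fragment ends to Tn5 cut sites and called cells with Cell Ranger ATAC 2.1.0 on mm10, and deposited fragments and whole-number counts per barcode, without normalization. Kept barcodes were called cells with 1000 to 100000 fragments in peaks and over 20% of fragments in peaks. The members, the lists and the gate were chosen with earlier results of these data known, and the leave-out gate and the independent endothelial gate were added after the data had been seen. Fragments over a gene body and 2 kb upstream (mm10 gene models of the given annotation) were summed per set and scaled to 1000000 fragments of that set (CPM). Marker windows were left out of gene counts. Genes with at least 40 fragments were compared between stroke and sham (10 in the multi-marker nuclei), and those with at least 40 expected fragments were compared with other kept nuclei (5 in the multi-marker nuclei). Expected fragments replaced the planned minimum of observed fragments, so that a gene could not enter the counts or the ranking only through the set where it was high. Genes named with under 5 expected fragments stood outside both and were picked for being high in the multi-marker nuclei.

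Intervals are exact Poisson, binomial or conditional binomial at 95%. PCR duplicates had been removed without molecular identifiers, and intervals cover counting error only, without the spread between animals or nuclei. Named genes were the 16 markers, up to 5 members of a list past 2-fold whose interval leaves out 1 and the genes that define it, the 10 highest and 10 lowest stroke to sham ratios and the 20 highest ratios to other nuclei, each ranked by the interval bound nearest 1. The rankings over all genes left out predicted genes, with symbols of the Gm, Rik or accession kind. Open bins were 300 bp windows with cuts in at least 6 multi-marker nuclei, and comparison bins had at least 500 cuts in other kept nuclei. For bins, the other kept nuclei left out the 38 that passed the independent endothelial gate. Python 3.11.15, numpy 2.4.6, pandas 2.3.3, scipy 1.17.1 and matplotlib 3.10.9 were used. The gate and ratio code was tested on simulated data. Alternatives covered the score cutoff, marker subsets, expectation, barcode filter, depth, scaling, minimum count, promoter windows and the leave-out gates.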

Additional observations from a re-analysis of the deposited data

How the results depend on the processing

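No paired analysis was possible because sham and stroke had 1 library each. For the same reason no replicate could be left out, and counts of genes past 2-fold rest on counting error alone. The share of kept nuclei in the gate was 3.88% in sham and 4.04% in stroke. It became 2.02% and 1.71% (ratio of stroke to sham 0.849) at a score of 5, 2.76% and 3.13% with fibroblast and mural markers only, 1.97% and 2.26% after thinning to 5000 fragments, and 2.42% and 2.49% without nuclei in another cell type's gate. In stroke it became 3.45% without the 3 longest windows, 6.53% (ratio 1.49) with the expectation taken from fragments in peaks and 2.94% among all called barcodes. With an expected rate for each library the ratio was 0.842. Alternatives added after the data had been seen left out each nucleus's top marker: 0.286% and 0.594% (ratio 2.08), 0.153% and 0.338% (ratio 2.21) when also thinned, 0.287% and 0.400% (ratio 1.40) among all called barcodes, and 0.487% and 1.0% (ratio 2.06) on the independent endothelial list. The ratio thus lay on both sides of 1. Between stroke and sham, 285 genes were higher and 182 lower. These became 77 and 60 with at least 100 fragments and 864 and 449 with at least 10. The higher count became 68 with promoters only and 178 after thinning. The lower count became 492 at a score of 5, 308 with endothelial markers only and 315 without nuclei of other gates. In the multi-marker nuclei with a minimum of 10 fragments, added later, 1553 were higher and 1527 lower. Against other nuclei, 6 genes higher and 1 lower became 1 and 0 with at least 100 expected fragments and 750 and 1779 in the multi-marker nuclei with a minimum of 5 expected fragments in place of 40, and the lower count became 8 without nuclei of other gates and 5 at a score of 5. Of 40 list medians recomputed, 22 moved by no more than a margin and 18 by more. The margin was the mean reach, to either side, of the log2 counting interval of the list's summed stroke to sham ratio. The 3 that fell below 0 came from promoters only: junctions (-0.07), transporters (-0.06) and hypoxia (-0.11). The causes were not tested.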
